A study of Mus musculus with 5 samples.

Results

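The cells described here are 196 fibroblast barcodes from 3 late pancreatic tumour libraries of genetically engineered mice, out of 4803 kept barcodes in those libraries and 10718 in the series of 5 libraries. They were selected on measured values: a barcode needed at least 30 UMIs (unique molecular identifiers, the counted RNA molecules) per 10000 over Col1a1, Col1a2, Col3a1 and Dcn, and at most 2 UMIs over the mesothelial genes Upk3b, Lrrn4, Gpm6a and Nkain4. It also had at most 1 UMI over the epithelial genes Epcam and Cdh1, at most 1 UMI of the leucocyte gene Ptprc, and under 10 UMIs per 10000 over the macrophage genes C1qa, C1qb and C1qc. A kept barcode had at least 200 genes and at most 20% mitochondrial UMIs. The levels of these rule genes in the cells are therefore a description of the choice.

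Each library was a droplet library that counts the 3′ ends of transcripts, made from untreated mice, and each group had 1 library. The late KIC library came at 60 days from mice with loss of Cdkn2a in the pancreas, and the late KPfC library at 60 days from mice with floxed Trp53. The late KPC library came at 6 months from mice with a mutant Trp53 allele. Early KIC pancreas was taken at 40 days and normal pancreas at 60 days. The late KPfC mice were labelled C57BL/6 and the other groups a mix of C57BL/6 and FVB. Genotype, strain, the sex mix of the cells and library therefore cannot be told apart between late KIC and late KPfC. The same holds between late KPC and late KPfC, where age differs as well. Between late KIC and late KPC genotype, age, the sex mix of the cells and library cannot be told apart. In these models the recombination is driven in the pancreatic epithelium, and whether any of the cells described derive from it was not tested. How many mice entered a library was not given in the sources used here.

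Fibroblasts of the pancreatic tumour stroma make fibrillar collagen, proteoglycans and the enzymes that cross-link them. Textbook accounts separate contractile, TGF-beta-responsive fibroblasts that carry smooth muscle actin (Acta2) from inflammatory fibroblasts that secrete Il6 and chemokines, with a further antigen-presenting form that carries MHC class II and shares genes with the mesothelium, the cell sheet that covers the organ. The rule left out barcodes with mesothelial genes, so that last form was kept out as far as its mesothelial genes were seen.

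Late KIC held 56 such cells among 836 kept barcodes (6.70%, exact 95% interval 5.10 to 8.61). Late KPfC held 48 among 2933 (1.64%, 1.21 to 2.16), and late KPC 92 among 1034 (8.90%, 7.23 to 10.8). All intervals here are exact, at 95%, and cover counting error only. With 1 library per group there was no replicate, so no difference between groups was tested. The cells had median totals of 13769, 11234 and 2317 UMIs in late KIC, late KPfC and late KPC, so late KPC was much the shallowest, with 298730 UMIs in all against 844590 and 601525. The median mitochondrial share was 1.92%, 3.72% and 4.10%. Xist, made by the inactive X chromosome, was seen without Y-linked UMIs in 78 late KPC cells and in 0 late KPfC cells. Y-linked genes were seen without Xist in 31 late KPfC cells and in 0 late KPC cells. Late KIC held both kinds, 27 cells with Xist alone and 24 with Y-linked UMIs alone, and 0 cells with both. Pairs of libraries shared 1 to 17 barcode sequences, 1 of them between a late KPC cell and a fibroblast of early KIC.

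The limits of the rule were met differently in the 3 libraries. Summed collagen and Dcn UMIs ran from 45.2 per 10000 upwards in late KIC, from 46.1 in late KPfC and from 30.3 in late KPC, with medians of 244, 137 and 160. The barcodes just outside this limit reached 17.6, 8.89 and 28.8, so a gap separated the cells from the rest in late KIC and late KPfC. In late KPC no gap did: 7 cells lay between 30 and 40, and 2 barcodes left out lay between 20 and 30. The mesothelial limit cut through a continuous range. In late KPfC 23 cells had 0 mesothelial UMIs, 10 had 1 and 15 had 2, while 25 barcodes just outside had 3 to 5 and 90 had more. In late KIC 44 of the 56 cells and in late KPC 79 of the 92 had 0. The barcodes over that limit but otherwise alike numbered 29, 115 and 19, so the cells described made up 65.9%, 29.4% and 82.9% of both kinds together. The limit is a number of UMIs, so it was the stricter in the deeper libraries.

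Markers of other cell types were present at levels that differed by type. Pericyte and smooth muscle markers (8 genes, Rgs5 and Notch3 among them) summed to 78.1, 24.9 and 73.6 CPM (UMIs per 1000000 UMIs of the cells) in late KIC, late KPfC and late KPC, with 3, 4 and 1 of the 8 at 0, and 12, 3 and 4 cells carried 2 or more of these UMIs. Endothelial markers summed to 24.9, 39.9 and 23.4, and T or NK cell markers to 9.47, 3.32 and 0. Epithelial markers summed to 202, 321 and 93.7 against 6451, 3561 and 1793 in the other kept barcodes. Macrophage markers summed to 155, 946 and 147 against 3971, 15106 and 10094. The late KPfC cells were thus the highest for both kinds, and 32 of its 48 cells, 29 in late KIC and 2 in late KPC had more than 1 UMI of Krt7, Krt8, Krt18 and Krt19. Mesothelial markers, Wt1 included, summed to 226, 294 and 311, against 1087, 2186 and 994 in the barcodes over the limit. The epithelial, macrophage and mesothelial sums include genes of the rule, so part of each gap was fixed by the choice of cells. Neutrophil markers summed to 99.5, 431 and 100.4. Haemoglobin was high as a sum, at 8624, 658 and 11040, above the summed fibroblast markers of late KIC and late KPC (5941 and 3963). In cells thinned to 1000 UMIs, haemoglobin had medians of 1, 0 and 0 UMIs in late KIC, late KPfC and late KPC. Its upper quartile was 1 UMI in each library, and its highest cell held 394, 4 and 314. Fibroblast markers had medians of 5.5, 3 and 3 UMIs in the same cells, so the haemoglobin sums do not describe a typical cell.

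Of the 5 genes that give the cells their name, Col1a1 and Dcn were part of the rule, and Acta2, Cthrc1 and Postn were each seen in a minority of the cells of every library, except Cthrc1 and Postn in late KIC. Acta2 was seen in 28.6%, 27.1% and 16.3% of the cells of late KIC, late KPfC and late KPC. After thinning every cell to 1000 UMIs it was seen in 10.7%, 4.17% and 7.41%, against 0.595%, 0.0948% and 0.704% of the macrophage barcodes of the same libraries, whose median totals were 7762, 8492 and 2294 UMIs. Cthrc1, a secreted protein of matrix-producing fibroblasts, was seen in 60.7% of the late KIC cells but in 12.5% and 14.1% of the other two groups. Lumican (Lum), a collagen-binding proteoglycan of fibroblasts, was at 738, 441 and 746 CPM, with 9.81, 7.32 and 8.00 CPM in the other kept barcodes. The 12 genes that stood most above the other kept barcodes in every late library were Ccl11, Mfap4, Dpt, Dpep1, Lum, Svep1, Mmp3, Wisp2, Sfrp1, Postn, Scara5 and Ms4a4d. Among them Dpt, the dermatopontin gene, was at 541, 394 and 214 CPM. Mfap4, a microfibril gene, was at 199, 79.8 and 137 CPM. Also on that list was Sfrp1, a secreted Wnt antagonist (336, 151 and 495 CPM).

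The late KPfC cells were split here by whether Lum was seen, a division that the name does not make. Lum was undetected in 32 of the 48, or 66.7%, although a cell at their median depth would hold 4.85 Lum UMIs at the library's mean level. It was undetected in 14 of 56 cells in late KIC and 42 of 92 in late KPC, where the same figure was 2.06 UMIs. In late KPfC the 16 cells with Lum and the 32 without had similar depth, with median totals of 12773.5 and 11000.5 UMIs. This split was chosen after the values were seen, and it is described without a test.

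In late KPfC, Col3a1 was at 17594 CPM with Lum and 4190 without, and 2855 in the 115 barcodes over the mesothelial limit. Dpt was at 1120, 12.7 and 31.7 CPM in the same order, and Mmp2, the gelatinase of fibroblasts, at 733, 7.61 and 33.0. Saa3, an acute-phase protein, was at 4271, 16211 and 10649, and Cd74, the MHC class II chaperone, at 101, 611 and 2255. On a ratio scale the cells without Lum lay nearer to the barcodes with mesothelial genes than to the cells with Lum for Col3a1, Dpt, Mmp2 and Saa3, and for Cd74 they lay between. Pdgfra, a fibroblast receptor, was at 179, 233 and 149 CPM, so all 3 sets carried it. Wt1, a mesothelial transcription factor, was at 121, 243 and 308, and Nkain4 at 38.6, 63.4 and 520. The keratin gene Krt19 was at 33.8, 145 and 442. These genes were picked after the split was seen, and Col3a1 and Nkain4 belong to the rule, so the values describe the sets and test nothing. Since most late KPfC cells lacked Lum, many results that follow with late KPfC are given also for the cells with Lum. In late KIC, Col3a1 was at 16267 CPM with Lum and 3668 without, and Dpt at 669 and 118. In late KPC, Dpt was at 405 and 20.3, but Saa3 at 4436 and 3996, so there Saa3 did not separate the cells.

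**Figure D1:**
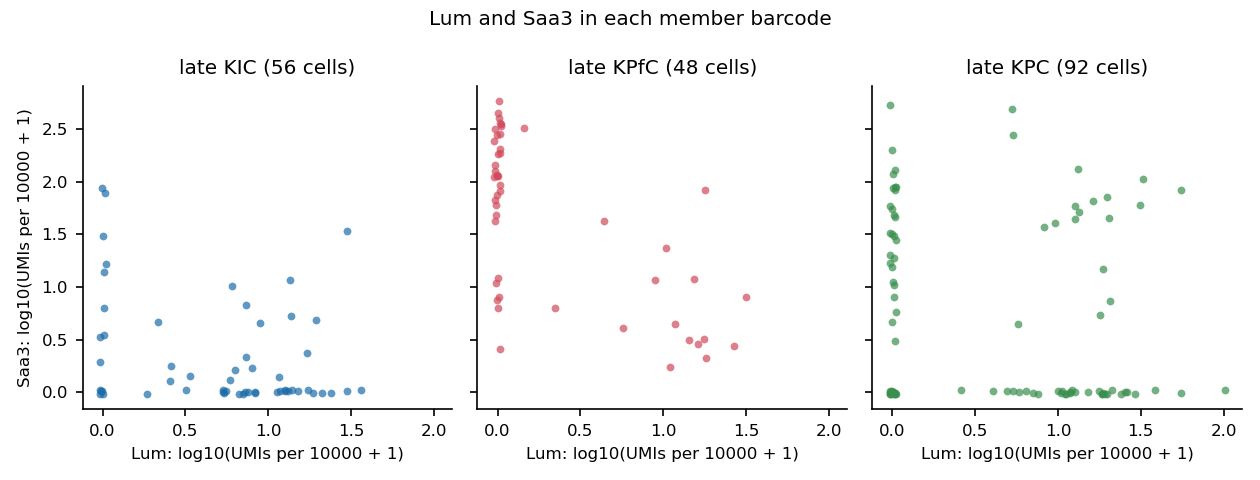
Each point is 1 cell of late KIC, late KPfC or late KPC, with Lum on the x axis and Saa3 on the y axis. Both are log10 of UMIs per 10000 plus 1, and every point is shifted slightly at random on both axes. In late KPfC the 32 cells without Lum carry Saa3, most of them more than the 16 cells with Lum, while in late KIC many cells with Lum carry none.

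Among matrix genes, late KIC cells were the highest for Cthrc1 and Postn. Between late KIC and late KPfC, 6.15% of the 4799 genes with at least 30 UMIs over both were 2-fold or more higher in late KIC and 9.21% lower, with a median log2 ratio over all genes of -0.14. Against that background, matricellular genes, whose secreted products tune how cells meet the matrix, were 2-fold or more higher for 4 of 12 and lower for 0 (median 0.28). Cthrc1 was at 534 CPM in late KIC, 69.8 in late KPfC and 161 in late KPC. It was 7.65-fold higher in late KIC than in late KPfC (5.57 to 10.8), and 7.71-fold among cells with Lum. Of its late KPfC UMIs, 54.8% came from 1 cell. Its 3.32-fold difference from late KPC fell under 2-fold with the late KIC cells that carry Y-linked UMIs, and with a keratin limit. The keratin limit allowed at most 1 UMI over Krt7, Krt8, Krt18 and Krt19 and no UMI of Epcam or Cdh1. It left only 27 cells in late KIC and 13 in late KPfC, so results with it rest on few cells. Postn, periostin, was at 307, 53.2 and 110 CPM. The late KIC level was 5.76-fold above late KPfC (3.98 to 8.60), and 2.82-fold among cells with Lum.

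Elastin (Eln) was lowest in late KPfC among the 3, at 755, 76.5 and 827 CPM in late KIC, late KPfC and late KPC. Late KIC was 9.88-fold above late KPfC (7.32 to 13.6), and 8.68-fold with Lum required. In late KPC 1 cell held 68.8% of the Eln UMIs, and with Lum required the 10.8-fold difference from late KPfC became 3.11-fold. Tenascin C (Tnc) was at 126, 29.9 and 402 CPM, and 1 cell held most of the late KPC UMIs. Its 13.4-fold difference between late KPC and late KPfC became 3.67-fold with Lum required, and the 4.19-fold one between late KIC and late KPfC became 1.10-fold. Mfap5, a microfibril gene, was at 1660, 570 and 552 CPM, and its 2.91-fold difference between late KIC and late KPfC became 1.27-fold with Lum required. Mmp2 behaved alike, at 836, 258 and 489 CPM, with 3.24-fold and 1.41-fold.

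Sparc and Fn1, abundant in all 3 libraries, differed less. Sparc, a collagen-binding glycoprotein, was at 9106, 5408 and 6658 CPM, and its ratio of late KIC to late KPfC went from 1.68 to 1.16 with Lum required. Fibronectin (Fn1) ran the other way from Postn, at 2987, 3960 and 1701 CPM, 2.33-fold higher in late KPfC than in late KPC, and 2.96-fold with Lum required. Other collagens were higher in late KIC than in late KPfC for 4 of 11 and lower for 0, with a median of 0.31. With Lum required the median was -0.0078, and Col4a2 (1.65-fold) and Col8a1 (1.38-fold) fell under 2-fold while Col14a1 was level, which left Col4a1. That basement membrane collagen gene was at 517, 145 and 613 CPM. Its ratio was 3.58-fold in late KIC and 4.24-fold in late KPC over late KPfC, and 2.69-fold and 3.03-fold with Lum required, but under 2-fold with the keratin limit (log2 ratio 0.53 and 0.69). Of the enzymes of collagen maturation, 1 of 15 was higher in late KIC than in late KPfC and 0 lower (median 0.13). With Lum required the median was -0.22, and that gene, Plod1, was at 1.17-fold. Between late KIC and late KPC, 12.6% of 3928 genes were 2-fold or more higher in late KIC and 9.29% lower, with a median over all genes of 0.09. There, 5 of the 15 maturation genes were higher and 0 lower (median 0.60, and 0.38 with Lum required).

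**Figure D2:**
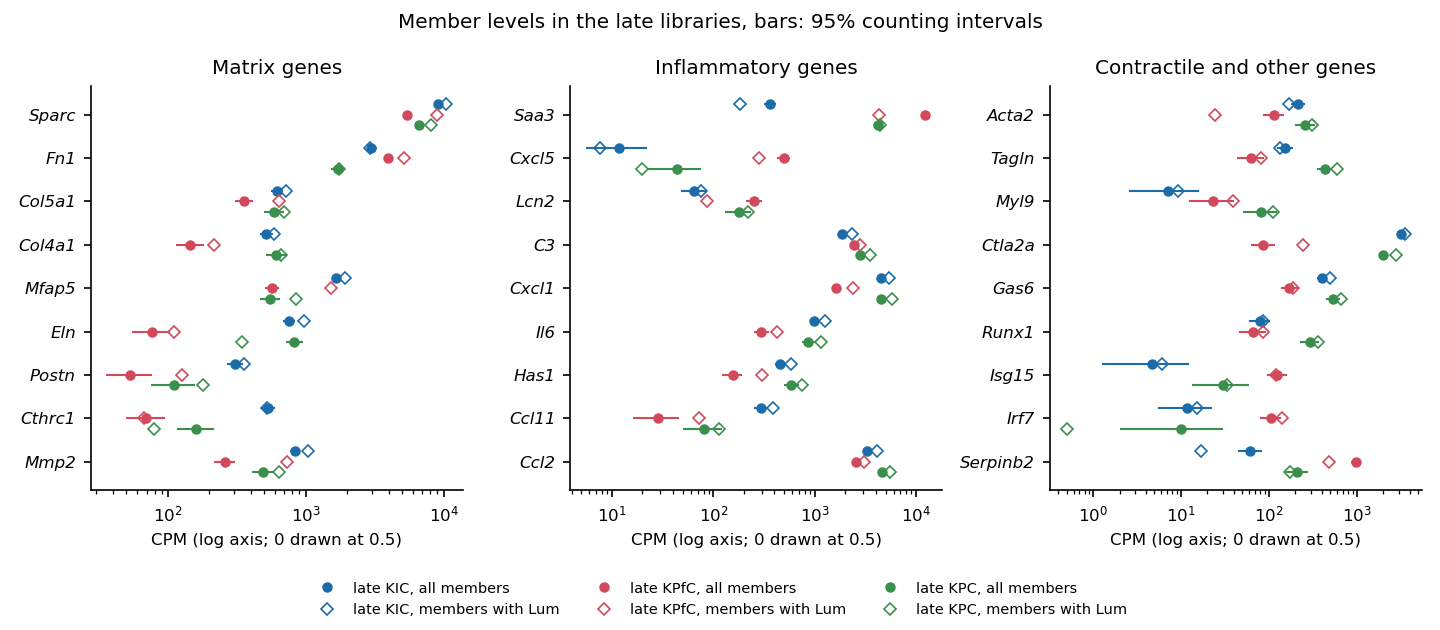
CPM on a log axis of matrix, inflammatory, contractile and other genes in the cells of late KIC, late KPfC and late KPC; filled points are all cells with 95% counting intervals, open diamonds the cells with Lum, without intervals. Cthrc1 (534 CPM) and Postn (307) are the highest in late KIC, and Saa3 (12098) in late KPfC, where the diamond lies lower.

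Of the contractile genes, Tagln and Myl9 were highest in late KPC. Acta2 was only a little higher in late KPC than in late KIC and was seen in few cells. Between late KPC and late KPfC, 8.03% of 3510 genes were 2-fold or more higher in late KPC and 14.4% lower (median over all genes -0.20). Contractile genes were higher for 3 of 11 and lower for 0, with a median of -0.03. Acta2 was at 214, 113 and 258 CPM in late KIC, late KPfC and late KPC, from 16, 13 and 15 cells. A single cell gave 31.5%, 70.6% and 42.9% of its UMIs. The 2.28-fold difference between late KPC and late KPfC (1.62 to 3.21) fell below 2-fold when cells with pericyte genes were left out, and was 12.7-fold among cells with Lum.

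Tagln, the actin-binding transgelin, was at 154, 63.2 and 432 CPM, 6.84-fold higher in late KPC than in late KPfC (4.73 to 10.1) and 7.20-fold among cells with Lum. Its 2.81-fold lead over late KIC depended on the setting. It became 1.69-fold after thinning, 1.58-fold as a mean of cells and 1.78-fold against the Y-linked late KIC cells. It was 4.41-fold with Lum required and 6.85-fold with 100 collagen and Dcn UMIs per 10000. Myl9, a myosin light chain, was at 7.10, 23.3 and 80.3 CPM, 11.3-fold higher in late KPC than in late KIC (4.50 to 33.8). The tropomyosins stayed within 2-fold: Tpm1 was at 236, 311 and 372 CPM and Tpm2 at 221, 278 and 271. With Lum required, Tpm1 was 2.24-fold higher in late KPC than in late KIC (1.58 to 3.14) and Tpm2 was 1.94-fold higher in late KPfC than in late KIC. Genes of the TGF-beta pathway, a main driver of the contractile form in culture, were higher in late KPC than in late KPfC for 3 of 10 and lower for 1 (median 0.34, and 1.06 with Lum required). Inhba, a subunit of the ligand activin, was at 40.3, 26.6 and 211 CPM. Runx1, a transcription factor gene, was at 79.3, 66.5 and 291 CPM, 4.38-fold above late KPfC in late KPC (2.98 to 6.54) and 4.13-fold with Lum required.

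The inflammatory genes did not move as 1 block: Saa3, Cxcl5 and Lcn2 were highest in late KPfC, while Il6, Cxcl1 and Has1 were lowest there. Between late KIC and late KPfC, 6 of 18 were higher and 3 lower, and the same numbers held between late KPC and late KPfC, with medians of 0.25 and 0.39. Promoters of 3 of these genes are shown, because their levels differed in opposite directions: each runs from 250 bases before the RefSeq transcript start to 50 after it (GRCm38.p6). Capitals mark matches to the 10-letter NF-kappaB consensus, named only and searched on both strands. In all, 1480 of 32851 RefSeq promoters of this length held a match (4.505%). Cxcl1, at chr5:90890995-90891294 on the plus strand, held 2 overlapping matches, 1 per strand, from 71 bases before the start, and Il6, at chr5:30012864-30013163 on the plus strand, held 1 from 44 bases before it. Saa3, at chr7:46715627-46715926 on the minus strand, held none in this window. A match describes letters and shows no binding. Only these 3 genes of the list were looked up, and whether a match goes with the direction of a level was not tested.
Cxcl1: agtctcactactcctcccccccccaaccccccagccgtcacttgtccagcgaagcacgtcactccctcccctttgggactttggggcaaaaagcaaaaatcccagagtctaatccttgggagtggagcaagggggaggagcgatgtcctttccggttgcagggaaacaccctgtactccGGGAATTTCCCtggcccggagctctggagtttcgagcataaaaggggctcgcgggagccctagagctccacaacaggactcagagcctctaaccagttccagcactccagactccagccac
Il6: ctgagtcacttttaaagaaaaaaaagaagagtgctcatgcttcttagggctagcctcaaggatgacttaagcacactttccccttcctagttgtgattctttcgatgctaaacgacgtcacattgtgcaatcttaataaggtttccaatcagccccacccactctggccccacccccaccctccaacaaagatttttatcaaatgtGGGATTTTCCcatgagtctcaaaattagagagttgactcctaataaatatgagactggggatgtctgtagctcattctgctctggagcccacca
Saa3: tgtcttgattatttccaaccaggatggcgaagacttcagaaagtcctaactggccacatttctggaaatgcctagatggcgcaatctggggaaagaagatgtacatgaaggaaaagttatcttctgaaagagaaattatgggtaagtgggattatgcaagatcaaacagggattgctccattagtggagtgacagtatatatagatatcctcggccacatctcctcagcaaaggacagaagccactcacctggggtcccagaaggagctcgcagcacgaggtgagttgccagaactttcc

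Saa3 was at 360 CPM in late KIC, 12098 in late KPfC and 4218 in late KPC. Late KPfC was 33.6-fold above late KIC (30 to 37.8), and still 23.3-fold above it among cells with Lum. Against late KPC it was 2.87-fold higher, but with Lum required late KPC was 1.04-fold above late KPfC (0.938 to 1.15), and with 0 mesothelial UMIs the ratio fell under 2-fold. Other kept barcodes held Saa3 at 254, 4730 and 1554 CPM. In cells thinned to 1000 UMIs it was seen in 25%, 79.2% and 43.2% of the fibroblasts against 16.1%, 62.2% and 30.5% of the macrophage barcodes, so the order of the libraries was the same in both cell types. How far free RNA entered the Saa3 level was not tested. Cxcl5, a neutrophil-attracting chemokine, was at 11.8, 494 and 43.5 CPM, 41.7-fold above late KIC in late KPfC (22.4 to 87.9), and 37.0-fold with Lum required. Lcn2, an iron-carrier-binding acute-phase protein, was at 65.1, 253 and 177 CPM, and its 3.88-fold difference between late KPfC and late KIC became 1.15-fold with Lum required.

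The cytokine Il6 was at 980, 298 and 867 CPM, so late KPfC was the lowest. Late KIC was 3.29-fold above it (2.80 to 3.89) and late KPC 2.91-fold, and with Lum required 2.96-fold and 2.74-fold. The chemokine Cxcl1 was at 4506, 1624 and 4556 CPM, 2.77-fold and 2.81-fold above late KPfC, and 2.25-fold and 2.44-fold with Lum required. Has1, a hyaluronan synthase, was at 457, 155 and 589 CPM, 2.96-fold and 3.81-fold above late KPfC, of which 1.93-fold and 2.45-fold were left with Lum required. Ccl11, the eosinophil chemokine eotaxin, was high in late KIC, at 295, 28.3 and 80.3 CPM. It was 10.4-fold above late KPfC (6.38 to 18.2) and 5.30-fold with Lum required. Cxcl12, the ligand of Cxcr4, was at 355, 251 and 683 CPM. It was 2.72-fold higher in late KPC than in late KPfC, and 5.60-fold with Lum required. The monocyte chemokine Ccl2 (3314, 2563 and 4653 CPM) and complement C3 (1877, 2460 and 2768 CPM) stayed within 2-fold over all 3 libraries. The late KIC levels depended on which late KIC cells were counted: with those carrying Xist alone, Il6 and Has1 were below late KPfC (log2 ratio -0.18 and -0.12), and Cxcl1 and Ccl11 were under 2-fold above it (0.86 and 0.65). With the keratin limit, late KPC over late KPfC fell to 0.56 for Il6 and turned to -0.18 for Cxcl12.

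Genes of adventitial fibroblasts, the perivascular reserve marked by Pi16 and Dpp4, were higher in late KIC than in late KPfC for 4 of 8 and lower for 2 (median 1.01). With Lum required that median was -0.12, so the direction turned. Clec3b, tetranectin, was at 676, 168 and 335 CPM, 4.03-fold higher in late KIC than in late KPfC and 1.94-fold with Lum required. Ly6c1 was at 496, 246 and 104 CPM, and its 2.02-fold difference between late KIC and late KPfC also turned with Lum required. Against late KPC, late KIC was higher for 5 of 8 adventitial genes and lower for 0 (median 1.04). A further list of fibroblast genes named after the chemokine Cxcl14 was higher in late KIC than in late KPfC for 5 of 8, lower for 2 (median 1.45, and 0.99 with Lum required). Cxcl14 itself was at 257, 24.9 and 90.4 CPM, 10.3-fold above late KPfC in late KIC (6.11 to 18.7) and 7.88-fold with Lum required. Gas6, the ligand of the receptor Axl, was at 400, 171 and 536 CPM, 2.34-fold and 3.13-fold above late KPfC, the former under 2-fold with the keratin limit or without pericyte genes (log2 ratio 0.25 and 0.52).

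The MHC class II gene Cd74 and the interferon genes Isg15 and Irf7 were highest in late KPfC. Of 5 MHC class II genes measured, 3 were lower in late KIC than in late KPfC and 0 higher (median -1.25, and -0.55 with Lum required). Cd74 was at 146, 436 and 348 CPM, and at 98.6, 101 and 113 with Lum required, so among those cells the libraries were level. Other kept barcodes held Cd74 at 3704, 6878 and 3268 CPM. The 3 class II genes were each under 0.5 of the level in other kept barcodes, the mark used here for possible free RNA. How far free RNA entered their levels was not tested. Interferon response genes were lower in late KIC than in late KPfC for 3 of 6 and higher for 0 (median -1.49), and in late KPC lower for 3 of 6 and higher for 1 (median -1.20). Isg15, a ubiquitin-like interferon product, was at 4.74, 125 and 30.1 CPM. Late KPfC was 26.3-fold above late KIC (9.87 to 99.1), and 19.6-fold with Lum required. Irf7, the interferon master transcription factor, was at 11.8, 105 and 10.0 CPM. Unlike Cd74, these genes kept their order with Lum required. Summed over the list, interferon genes were at 2029, 3617 and 2166 CPM in late KIC, late KPfC and late KPC. The sums were 853, 2455 and 1513 in the other kept barcodes, and 3842, 5696 and 3316 in the barcodes over the mesothelial limit. Late KPfC was thus the highest in each of these sets.

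Of the list of hypoxia and glycolysis genes, 6 of 15 were lower in late KPC than in late KPfC and 1 higher (median -0.73). The 6 were Gapdh, Pgk1, Eno1, Pgam1, Pkm and Car9, and the 1 was Adm, the adrenomedullin gene. With the keratin limit Gapdh (1.66-fold), Eno1 (1.76-fold) and Pkm (1.49-fold) fell under 2-fold, and after thinning Pgam1 was level. Pgk1, phosphoglycerate kinase, was at 71.0, 219 and 30.1 CPM and Gapdh at 950, 1569 and 616. Complement genes were higher in late KIC than in late KPfC for 3 of 9 and lower for 0, but their median of 0.67 became -0.06 with Lum required. Among secreted growth factors Igf1 was at 1132, 460 and 787 CPM, and its 2.46-fold difference between late KIC and late KPfC became 1.42-fold with Lum required. Wnt4, a Wnt ligand, was at 240, 158 and 124 CPM. Klf4, a transcription factor of fibroblast and epithelial cell state, was at 817, 1022 and 1878 CPM.

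**Figure D3:**
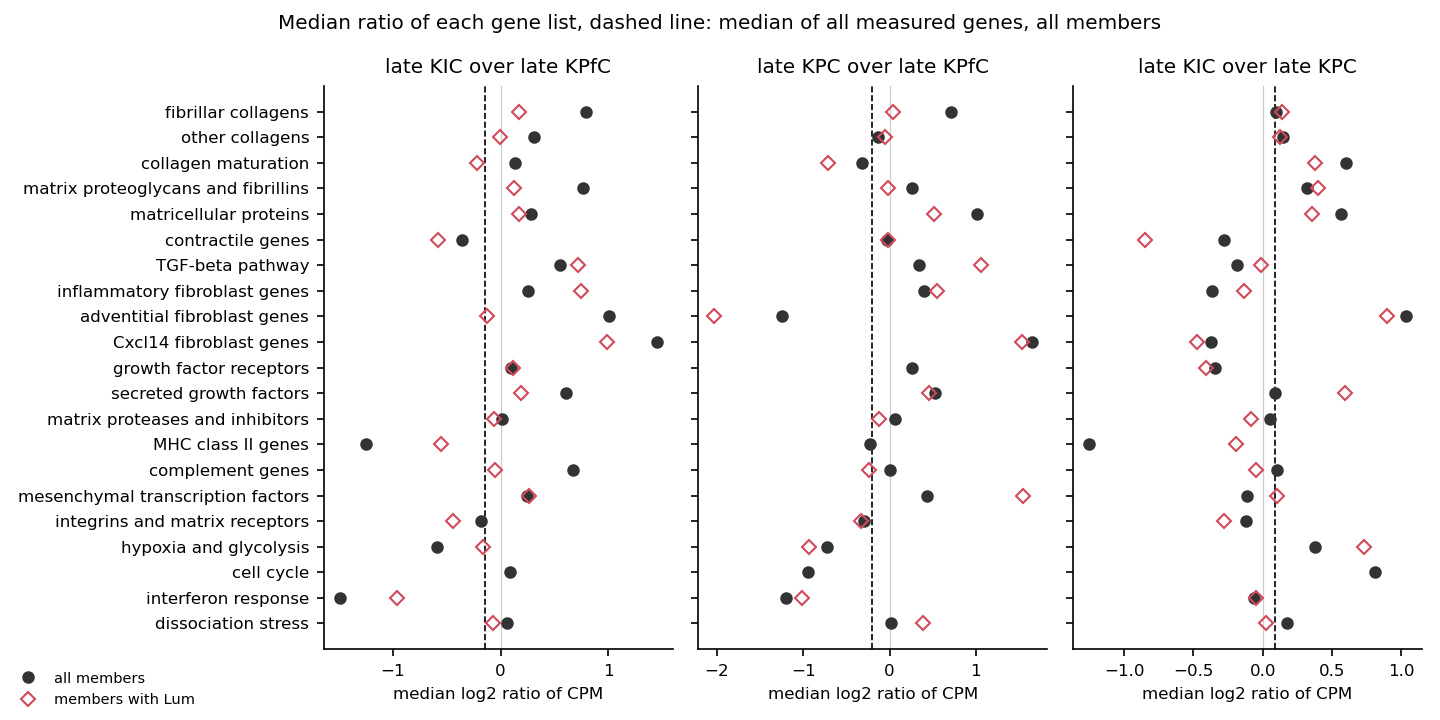
Median log2 ratio of CPM over the measured genes of each of 21 gene lists, for the 3 pairs of late libraries; dots are all cells, diamonds the cells with Lum, and the dashed line the median of all measured genes. Adventitial genes (1.01) turn to below 0 with Lum required between late KIC and late KPfC, while the Cxcl14 and interferon lists stay on their side.

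Among the largest ratios to late KPfC was that of Ctla2a. This gene of a cathepsin-inhibitor-like protein was at 3160, 86.4 and 1978 CPM in late KIC, late KPfC and late KPC. Late KIC was 36.6-fold and late KPC 22.9-fold above late KPfC (27.8 to 49.1 and 17.2 to 31.0), and with Lum required 14.7-fold and 11.6-fold. Its level was 495, 88.8 and 219 CPM in the other kept barcodes of these libraries, so it followed the same order there at a smaller size. Pcsk5, a proprotein convertase, was at 105, 6.65 and 70.3 CPM, 15.8-fold above late KPfC in late KIC (5.98 to 59.4), and 9.37-fold with Lum required. Pdgfrl, a gene of a receptor-like protein, was at 68.7, 4.99 and 117 CPM, from 3 UMIs in late KPfC. The complement protease genes C1rb (127, 1.66 and 60.3 CPM) and C1s2 (90, 3.32 and 117 CPM) have near-identical copies beside them, so their split of UMIs between copies is uncertain.

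Higher in late KPfC were Serpinb2, a plasminogen activator inhibitor (61.6, 969 and 211 CPM), and Trf, transferrin (101, 2121 and 325 CPM). Serpinb2 was 15.7-fold above late KIC (11.8 to 21.3), where it had 52 UMIs. With Lum required it was 28.2-fold, from 99 UMIs in late KPfC and only 11 in late KIC. Late KIC also kept 11 when its top cell was left out, so a single cell held most of its Serpinb2 UMIs. The 4.6-fold Serpinb2 difference between late KPfC and late KPC was 2.77-fold with Lum required. It turned with the keratin limit (log2 ratio of late KPC over late KPfC 0.56). Trf was 6.53-fold above late KPC, but with Lum required late KPC was 1.01-fold above late KPfC (0.668 to 1.51). Barx1, a homeobox gene of gut mesenchyme, was at 2.37, 81.5 and 46.9 CPM.

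Some of the largest ratios with late KPC were seen in the other barcodes of that library too. Vps8, an endosomal tethering subunit, was at 18.9, 6.65 and 1841 CPM in the fibroblasts and 10.2, 10.6 and 578 in the other kept barcodes. Gstp1, a glutathione transferase, was at 179, 441 and 20.1 CPM in the fibroblasts and 125, 165 and 10.7 in the others. Over all genes, 30.9% of those 2-fold or more higher in late KPC than in late KPfC fibroblasts were also so in the other kept barcodes, and these were 61.6% of the latter's own. Of the 3499 genes measured in both, 275 were so in the fibroblasts and 138 in the other barcodes. Between late KIC and late KPfC the shares were 36.8% and 27.3%, with 277 and 373 of 4778 genes. Sfrp4, a secreted Wnt antagonist, was at 252, 51.5 and 16.7 CPM, 15.1-fold above late KPC in late KIC (6.36 to 46.9), but 1 cell gave 51.6% of its late KIC UMIs. The ratio was 4.62-fold with the keratin limit and 36.4-fold with the cell highest for it left out of each library, where 1 late KPC UMI was left. Arc, an immediate-early gene, was at 7.10, 48.2 and 104 CPM, 14.6-fold above late KIC in late KPC (6.00 to 42.8). Jchain and Igfbp5 were also high in late KPC, but 1 cell gave 96.4% and 85.0% of their UMIs.

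Late KIC offered a comparison within 1 library, between the 27 cells with Xist alone and the 24 with Y-linked UMIs alone. With 0 cells showing both, the library was taken to hold cells of male and of female mice, and sex and animal cannot be told apart. Their median totals were 13926 and 12266.5 UMIs. Of 2841 genes, 8.34% were 2-fold or more higher in the first set and 5.60% lower, with a median log2 ratio over all genes of 0.16. Il6, Has1 and several chemokines were higher in the Y-linked set. Il6 was at 262 CPM with Xist and 1698 with Y-linked UMIs, 6.48-fold higher in the latter (5.30 to 7.98). Has1 was at 142 and 851 CPM (5.99-fold, 4.55 to 7.99), and Ccl11 at 44.4 and 438 (9.86-fold, 6.15 to 16.6). Ccl2 was at 1692 and 4796, Cxcl1 at 2949 and 6088, and the adventitial gene Clec3b at 366 and 953 CPM.

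Other genes were higher in the Xist set. Cthrc1 was at 728 CPM with Xist and 273 with Y-linked UMIs (2.67-fold, 2.1 to 3.41), and the fibril-associated collagen gene Col12a1 at 215 and 15.5 (13.9-fold, 5.75 to 43.7). Mmp3, stromelysin, was at 258 and 27.9 CPM (9.22-fold), and Sfrp1 at 528 and 112 (4.73-fold). Gas6 was at 615 and 143 CPM (4.31-fold, 3.14 to 6.02). Cxcl14 was at 402 and 112 CPM, but 94.4% of its UMIs in the Y-linked set came from 1 cell. Matrix genes went both ways: the tenascin gene Tnc was at 55.5 and 248 CPM and the osteoglycin gene Ogn at 37.7 and 165, with 70% of the Tnc UMIs of the Y-linked set from 1 cell. Postn was at 273 and 360 CPM, and Ctla2a was nearly level, at 3712 and 2990. The pooled late KIC level of Il6, Has1, Ccl11, Cthrc1 and Gas6 therefore averages unlike sets. With the Y-linked set alone, Gas6 was below late KPfC, at a log2 ratio of -0.26.

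**Figure D4:**
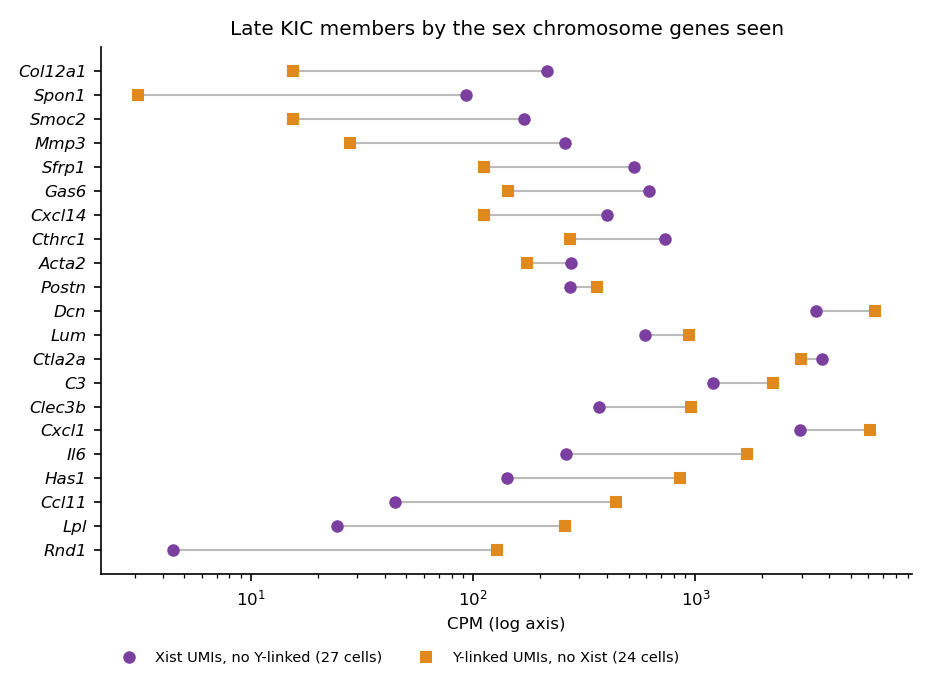
CPM on a log axis of 21 genes in the late KIC cells with Xist and no Y-linked UMI (27 cells, circles) and with Y-linked UMIs and no Xist (24 cells, squares). Genes such as Col12a1 and Sfrp1 lie higher in the circles, and Il6, Has1 and Ccl11 in the squares.

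The same gene rule found 398 fibroblasts in normal pancreas (16.7% of 2386 kept barcodes) and 1355 in early KIC (38.4% of 3529), with median totals of 5136.5 and 1729 UMIs. They are not among the 196 cells and serve for comparison. Of 6399 genes, 1.28% were 2-fold or more higher in every late library than in both earlier ones, and 4.72% were lower in every one. The 3 late libraries were each set against the same 2 earlier libraries, so their ratios share that side. Stmn2, a microtubule-regulating stathmin known from neurons, was at 0.47 CPM in normal pancreas, 2.27 in early KIC, and 443, 209 and 505 in late KIC, late KPfC and late KPC. The lowest late library was 92.2-fold above the higher of the earlier ones. In cells thinned to 1000 UMIs, Stmn2 was seen in 19.6%, 16.7% and 19.8% of the late fibroblasts, and in 0%, 0.284% and 0% of the macrophage barcodes.

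Other genes above both earlier libraries were Ereg, an EGF receptor ligand (0.47, 6.06, 219, 123 and 191 CPM in the same order), and Calca, the calcitonin peptide gene (0.47, 4.92, 88.8, 98.1 and 114 CPM). Hspb1, a small heat-shock protein, was at 111, 52.2, 1458, 1475 and 2614 CPM, 13.2-fold or more above both earlier libraries in each late one. The acute-phase protein gene Hp was at 3.76, 58.7, 689, 838 and 1285 CPM. These genes were chosen as high in all 3 late libraries, so their likeness there is part of the choice. Among the inflammatory list 4 of 17 were higher in every late library (Cxcl2, Ccl2, Hp and Lcn2) and 1 lower (Ccl11). Of 11 contractile genes 2 were higher, with Acta2 at 1.41 CPM in normal pancreas and 31.0 in early KIC, and Tpm2 at 31.0 and 38.6. For Acta2 in late KPfC, a single cell gave most of the UMIs, and 20 UMIs were left without it. The late KPfC cells with Lum had Acta2 at 24.1 CPM, from 5 UMIs, below the level of all early KIC fibroblasts. The protease inhibitor gene Timp1 was at 37.2 and 416 CPM before, and 2383, 2874 and 1547 late.

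More genes were lower than higher in the late fibroblasts. Gsn, the actin-severing gelsolin, was at 22199 CPM in normal pancreas and 11632 in early KIC, and at 1107, 570 and 566 in late KIC, late KPfC and late KPC, 10.5-fold or more below both in each. Pcsk6, a proprotein convertase, was at 260, 148, 4.74, 8.31 and 6.70 CPM in the same order. Fap, the fibroblast activation protein often used to mark tumour fibroblasts, was at 65.4, 40.1, 3.55, 3.32 and 3.35 CPM. Rspo3, a Wnt amplifier, was at 80.9 and 79.9 CPM before, and at 2.37, 0 and 6.70 late. Adventitial genes were lower for 3 of 9 and higher for 0 (Dpp4, Clec3b and Sema3c). Dpp4 was at 210 and 82.1 CPM before, and at 29.6, 8.31 and 33.5 late. The Cxcl14 list was also lower for 3 of 9, with Itih5, a hyaluronan-binding chain, at 434, 443, 34.3, 76.5 and 56.9 CPM. Tcf21, a mesenchymal transcription factor, was at 325, 182, 37.9, 4.99 and 6.70 CPM. Acinar transcripts, which exocrine cells make, summed to 19388 and 18306 CPM in the earlier fibroblasts and to 54.5, 88.1 and 20.1 in the late ones. How they came into these barcodes, and their part in these ratios, was not tested.

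**Figure D5:**
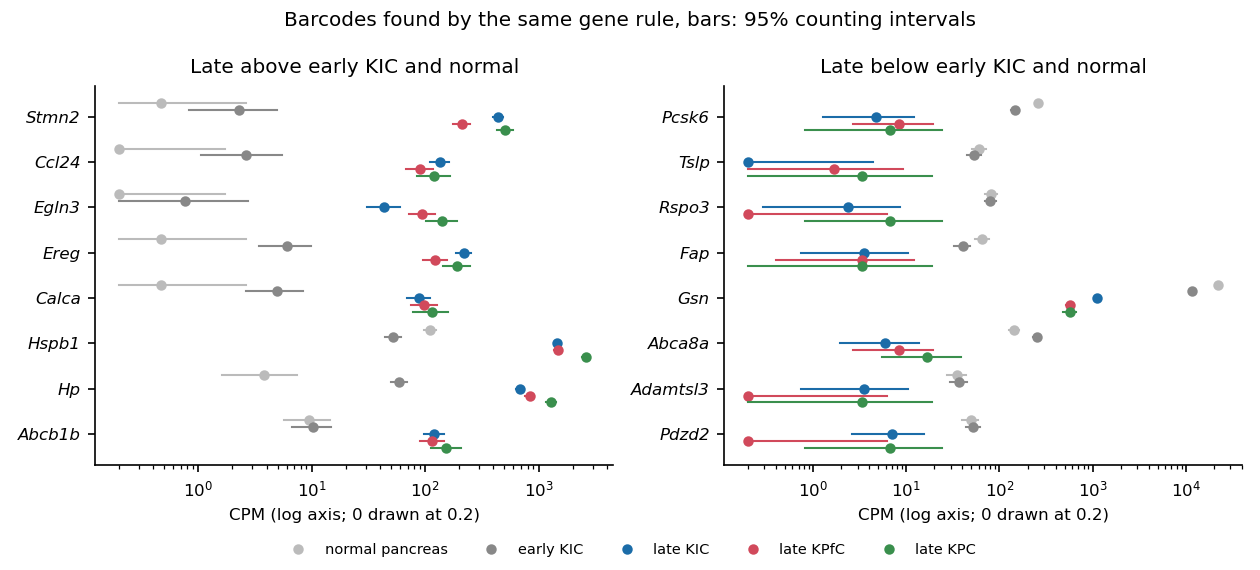
CPM on a log axis with 95% counting intervals, for 8 genes above and 8 below both earlier libraries in every late one, in normal pancreas, early KIC and the 3 late libraries. The genes were chosen for late libraries that all lie on 1 side, with Stmn2 from 209 to 505 CPM late against at most 2.27 before.

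Within each library the cells differed in contractile and inflammatory UMIs. In cells thinned to 1000 UMIs, contractile UMIs were 0 in 18 of 56 late KIC cells, 11 of 48 late KPfC cells and 25 of 81 late KPC cells deep enough to thin. Cells with at least 5 inflammatory and fewer than 5 contractile UMIs numbered 44, 45 and 66. Cells with at least 5 contractile UMIs alone numbered 3, 0 and 1, and with both 4, 1 and 7. The inflammatory list gave medians of 11, 24 and 19 UMIs and the contractile list 1 in each library, so most cells pass 5 on the former alone. The rank correlation of the 2 scores across cells was -0.47, -0.19 and -0.24 (n = 56, 48 and 81 cells), and -0.14 and -0.05 in the fibroblasts of normal pancreas and early KIC. These points share a library and a fixed UMI total, so they are given as a description only.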

How the data were processed

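Single-cell libraries of pancreas or pancreatic tumour were analysed, 1 per group. The authors deposited UMI counts per gene and barcode, made with Cell Ranger 2.1.1 on GRCm38, per the submitters' processing notes; the annotation release and any filter on barcodes were not given in the sources used here. Everything else was computed here with Python 3.11.15, numpy 2.4.6, scipy 1.17.1 and pandas 2.3.3. Counts were summed over the cells of a library and divided by their total and scaled as CPM, with exact Poisson intervals. Ratios have exact binomial intervals. A gene was measured in a pair with at least 30 UMIs over both libraries. No differential test between groups was possible with 1 library each, and p-values were not computed. No doublet caller was run. Some alleles and genes are not reported here. Thinning drew 1000 UMIs per cell. The scripts were tested on simulated data.

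The members and the gene lists were chosen with earlier results of these data known. Named genes were the markers and genes of the rule; the 8 largest and 8 smallest ratios in each pair, with the interval outside 1.5-fold and, where higher, at least 0.5 of the level in other barcodes; the 12 leading genes over other barcodes; the 8 furthest above and 8 furthest below both earlier libraries; and in each list the genes with most UMIs and the largest spread, with further list members given by values. The genes that differ between late KIC cells with Xist and with Y-linked UMIs, and the genes given for the Lum split, were chosen after their values were seen. Positions are from RefSeq, GRCm38.p6. The closing section gives 13 other settings of these steps, and 4 more chosen after seeing the data, with Lum required among them.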

Additional observations from a re-analysis of the deposited data

How the results depend on the processing

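The number of genes 2-fold or more apart was 737, 789 and 860 for late KIC against late KPfC, late KPC against late KPfC, and late KIC against late KPC. A keratin limit made these 350, 439 and 476, thinning to 1000 UMIs 99, 144 and 118, and a minimum of 100 UMIs 239, 219 and 214; fewer genes were measured in each. With 0 mesothelial UMIs late KPC against late KPfC gave 457, and with Lum required 441; with the Y-linked late KIC cells alone late KIC against late KPC gave 500. The share of kept barcodes moved to 0.784% in late KPfC with 0 mesothelial UMIs, to 1.16% and 6.96% in late KPfC and late KPC with 100 collagen and Dcn UMIs per 10000, to 3.23% and 0.443% in late KIC and late KPfC with the keratin limit, and to 1.16% in late KPfC with the stricter leucocyte limit. It was 3.23% and 2.87% for late KIC cells with Xist alone and Y-linked UMIs alone, and 5.02%, 0.545% and 4.84% in late KIC, late KPfC and late KPC with Lum required. Among ratios and medians that were 2-fold or more apart, directions turned in 23 cases, and the cause was not tested; the values are log2 ratios. Late KPC over late KPfC turned for the matricellular median (-0.585 after thinning, -0.46 with 100 UMIs), the adventitial median (1.47) and Pgam1 (0.034) after thinning, Cxcl12 (-0.18), Fgf2 (-0.29) and Serpinb2 (0.56) with the keratin limit, and Saa3 (0.055) and Trf (0.013) with Lum required. Late KIC over late KPfC turned for Tagln (-0.19) with 100 collagen and Dcn UMIs, Sfrp4 (-0.55) with the keratin limit, Il6 (-0.18), Has1 (-0.12), Ogn (-0.14) and Adm (-0.052) with the Xist cells alone, Gas6 (-0.26) and Mmp3 (-0.39) with the Y-linked cells alone, and the adventitial median (-0.12), Ly6c1 (-0.14), Col14a1 (-0.0078) and Penk (0.47) with Lum required. Late KIC over late KPC turned for Ccl11 (-0.86) with the Xist cells alone and H2-Ab1 (0.33) with Lum required. Beside these, 7804 gene ratios and 822 list medians stayed within their interval or spread, and 1496 and 155 moved in size. Of smaller medians of late KIC over late KPfC, complement (-0.057), collagen maturation (-0.22) and other collagens (-0.0078) also changed sign with Lum required. No paired analysis was possible because each group has 1 library, which also leaves no replicate to leave out. Late KPC, the shallowest library, limits what can be said of genes under about 10 CPM there.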
